A study of Homo sapiens with 2 samples.

Results

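Pancreatic duct genes were examined in RNA-seq of Stage 6 cells, the cultures that human embryonic stem cells of the H1 line had formed at the last stage of a stepwise differentiation towards insulin-expressing cells. H1 is an established line. The group comprised 8 genes chosen by name, CFTR, SPP1, MUC1, CA2, PROM1, EPCAM, CDH1 and SLC4A4, out of 55797 genes in each table, and each name matched exactly 1 gene. Of these 8 genes, all passed an FPKM of 1 in both libraries. One culture was divided into a live sample, from which RNA was taken at once with the RNeasy kit, and a processed sample, which underwent MARIS: fixation in 4% paraformaldehyde, permeabilization, antibody staining and a mock sort that kept all cells, followed by RNA isolation with a modified RecoverAll kit. Both samples thus came from 1 mixed culture of 1 line, with no selection of cells by stain. Whether the mixture stayed the same through processing was not tested. Each condition was represented by 1 library.

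Pancreatic ducts carry the enzyme-rich juice of the acinar cells to the gut and add a bicarbonate-rich fluid to it. Duct cells take up bicarbonate across the basolateral membrane or make it from carbon dioxide, and release it at the apical membrane through ion channels and exchangers. They are polarized epithelial cells, joined by cadherin contacts and coated on the luminal side by mucins. Several of the 8 genes are active in other epithelia as well, and EPCAM, CDH1 and PROM1 are also expressed by undifferentiated stem cells.

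Expression was measured as FPKM, the fragments of a gene divided by its exon length and by the size of the library, with the lower and upper bound that the authors' software gave for each library. The bounds describe the precision within a library and are not replicate error, so no test between live and processed cells was possible. The FPKM of all genes added up to 510713 (live) and 499398 (processed), and 16004 and 15957 genes reached an FPKM of 1. Low FPKM values fell on steps worth 1 fragment, and this step was 1.07 times larger in the processed library, which was therefore slightly shallower. The log2 ratio printed for a gene is that of processed FPKM plus 1 to live FPKM plus 1, and positive values are higher in processed cells. Over the 14635 genes that reached 1 FPKM in both libraries, processed FPKM had a median of 0.932 times live FPKM, a shift of -0.10 on the log2 scale. The ratio of each duct gene is therefore also given after the processed values were divided by 0.932, and is then called the rescaled ratio. For other genes and for lists, ratios are as deposited unless called rescaled.

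The duct genes spanned a wide range of levels. EPCAM and CDH1 stood at 161 to 195 FPKM, PROM1, SLC4A4 and CA2 at 13.2 to 34.9 FPKM, and SPP1, MUC1 and CFTR at 1.12 to 7.12 FPKM. CDH1 and CFTR were higher in processed cells with bounds that did not overlap, SPP1 and SLC4A4 were lower with bounds that did not overlap, and the bounds of EPCAM, PROM1, CA2 and MUC1 overlapped. Bounds were thus separate for 4 of the 8 genes, 2 in each direction. Of the 17326 genes that reached 1 FPKM in one library or both, called the tested genes, bounds were separate for 71.8%, with 28.1% higher and 43.7% lower in processed cells. None of the 8 genes passed 2-fold when 1 was added to each FPKM. This line was passed by 12.8% of the tested genes, 6.57% upwards and 6.19% downwards. Among tested protein-coding genes, the type of all 8, the share was 6.68%. SPP1 came closest of the 8. Without the pseudocount it differed 2.17-fold, a line passed downwards by 9.51% of the 16991 genes above 0 in both libraries. The median log2 ratio of the 8 genes was -0.017, and that of the 17326 genes was -0.092. After rescaling, these medians were 0.082 and -0.0013, and EPCAM and CA2 joined the genes with separate bounds on the higher side, which made 4 higher and 2 lower, 6 of 8 in all, beside 34.8%, 35.7% and 70.4% of all tested genes. By level, bounds were separate for 2 of the 3 duct genes with a mean FPKM from 1 to 10. They were separate for 1 of 3 from 10 to 100 and 1 of 2 from 100 upwards. Of all tested genes at these levels, bounds were separate for 69.4%, 72.1% and 75.9%, and 16.9%, 3.49% and 1.86% passed 2-fold. In bulk RNA, fewer cells of a type and less RNA per cell cannot be told apart.

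**Figure D1:**
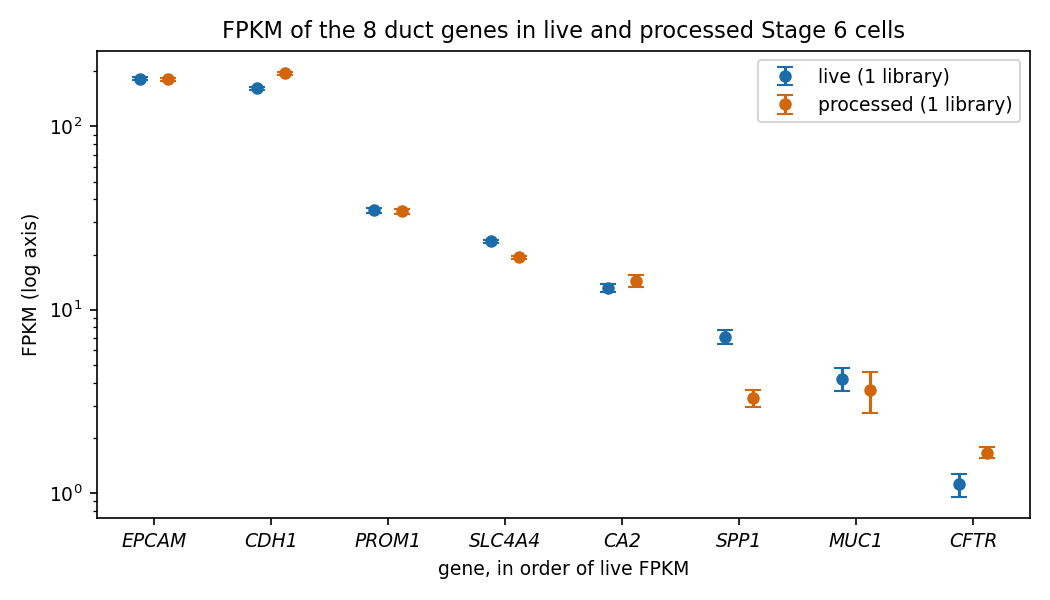
FPKM (log axis) of the 8 duct genes in the live (blue) and the processed (orange) library, 1 library each, with bars from the lower to the upper bound given by the authors' software. EPCAM and CDH1 lie highest and exchange places between the libraries, and the SPP1 points, at 7.12 and 3.28 FPKM, are the furthest apart.

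Bicarbonate secretion was represented by CFTR, CA2 and SLC4A4. CFTR (chromosome 7, 117105838 to 117308719 on GRCh37, plus strand) encodes the chloride and bicarbonate channel of the apical membrane that is mutated in cystic fibrosis. Its FPKM was 1.12 in live cells, with bounds of 0.957 to 1.28, and 1.66 in processed cells, with bounds of 1.55 to 1.78. The processed library was higher and the bounds were separate, at a log2 ratio of 0.33 and a rescaled ratio of 0.40. At so low a level the pseudocount compresses the ratio, which was 0.58 without it, or 1.49-fold. CFTR was the lowest of the 8 genes in both libraries, and only 9.48% of the 17326 tested genes had a lower FPKM in the live library and 16.3% in the processed one. With the step of 1 fragment and the 6070 nt of the annotated canonical transcript, its values correspond to about 657 fragments in live and 914 in processed cells. The 4 genes whose positions overlap CFTR were all below 0.01 FPKM in both libraries.

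CA2 (chromosome 8, 86376081 to 86393693, plus strand) encodes cytosolic carbonic anhydrase II, which forms bicarbonate from carbon dioxide and water. It had 13.2 FPKM in live cells (12.5 to 13.9) and 14.4 FPKM in processed cells (13.4 to 15.4). The bounds overlapped at a log2 ratio of 0.12. After rescaling the ratio was 0.21 and the processed bounds, from 14.3 to 16.6 FPKM, lay above the live ones. A long non-coding RNA on the opposite strand, RP11-317J10.2, shares 1064 bp with the 5′ side of CA2 and had 0.376 FPKM (live) and 2.03 FPKM (processed). Whether counting used strand is not given in the sources used here, and fragments of the shared stretch cannot be told apart without it.

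SLC4A4 (chromosome 4, 72053003 to 72437804, plus strand) encodes the electrogenic sodium bicarbonate cotransporter NBCe1, which brings bicarbonate into the duct cell across the basolateral membrane. It had 23.6 FPKM in live cells (23.2 to 24.0) and 19.3 FPKM in processed cells (18.9 to 19.7). Processed cells were lower with separate bounds, at a log2 ratio of -0.28 and a rescaled ratio of -0.18. CFTR and SLC4A4, the apical exit and the basolateral entry of bicarbonate, thus differed in opposite directions, and the FPKM of CFTR relative to that of SLC4A4 was 0.0473 in live and 0.0864 in processed cells. Such a ratio within a library does not depend on the scaling between libraries.

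Of 18 other genes of ductal bicarbonate and fluid secretion, 14 reached an FPKM of 1. Bounds were separate for 5 on the higher and 3 on the lower side and overlapped for 6, and the median log2 ratio was 0.11. After rescaling these counts were 7, 3 and 4, with a median of 0.20. None of the 14 passed 2-fold with a pseudocount of 1. SLC9A3R1, the scaffold that binds the tail of CFTR, had 70.4 FPKM (live) and 76.4 FPKM (processed), with separate bounds. ATP1B1, the beta subunit of the sodium pump, had 60.1 FPKM (live) and 43.8 FPKM (processed), with separate bounds. The anion exchangers SLC4A2 (47.1 and 69.2 FPKM) and SLC26A6 (12.1 and 18.8 FPKM) were both higher in processed cells with separate bounds, at log2 ratios of 0.54 and 0.59. SCTR, the secretin receptor through which the hormone stimulates duct cells, had 23.2 and 20.8 FPKM with overlapping bounds.

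CA2 was the most abundant carbonic anhydrase in both libraries. Of 14 others, 9 reached an FPKM of 1. None of these was higher with separate bounds, 4 were lower and 5 overlapped, with a median log2 ratio of -0.20. Of all tested genes, 28.1% were higher and 43.7% lower. After rescaling none of the 9 was higher and 3 were lower, with a median of -0.11, beside 34.8% and 35.7% of all tested genes. After CA2, the most abundant was CA14, a membrane-bound form, at 11.5 FPKM (live) and 9.89 FPKM (processed). CA2 exceeded it 1.14-fold in live and 1.46-fold in processed cells. CA4, the form anchored on the outside of the membrane, had 3.97 and 4.40 FPKM with overlapping bounds. CA5B, a mitochondrial form, had 3.79 and 1.41 FPKM, and CA3, a cytosolic form of muscle, had 2.95 and 1.27 FPKM. CA13, also cytosolic, was past 2-fold with the pseudocount of 1, and without it CA5B and CA3 were as well, which made 3. CA13 had 3.55 FPKM in live and, with separate bounds, 1.24 FPKM in processed cells, a log2 ratio of -1.03. CA7 was listed at 0 in both. In the SLC4 family of bicarbonate transporters, 5 of 9 other members reached an FPKM of 1, with 2 higher, 1 lower and 2 overlapping, and a median log2 ratio of -0.12. SLC4A2 was their most abundant member, and SLC4A4 stood at 0.500 times its FPKM in live and 0.278 times in processed cells. SLC4A7, a sodium bicarbonate cotransporter, had 18.8 and 12.8 FPKM. SLC4A8, a sodium-driven exchanger, passed 2-fold on the higher side, with 5.39 FPKM (4.87 to 5.91) in live and 13.7 FPKM (12.4 to 15.1) in processed cells, a log2 ratio of 1.21. SLC4A1, the exchanger of red blood cells, was listed at 0 in both libraries.

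The secreted protein of the group, osteopontin, is encoded by SPP1 (chromosome 4, 88896819 to 88904562, plus strand). It is an acidic phosphoprotein that binds integrins and CD44, is found in duct epithelium and is also made by macrophages and bone cells. SPP1 had 7.12 FPKM in live cells (6.48 to 7.75) and 3.28 FPKM in processed cells (2.94 to 3.63). Live cells were higher by 2.17-fold with separate bounds, and this was the largest difference among the 8 genes. The log2 ratio was -0.92 with a pseudocount of 1 and -1.12 without it, and -0.84 after rescaling. Of the 17326 tested genes, 7.30% had a lower log2 ratio than SPP1. With the 1561 nt of its canonical transcript, the values correspond to about 987 fragments in live and 425 in processed cells. No other gene in the tables overlaps its position.

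Macrophage markers were set beside SPP1. Of 7 such markers, 5 were above 0 in live cells and listed at 0 in processed cells, as were 5375 of all 55797 genes, and the summed level of the 7 was 6.07 FPKM (live) and 1.63 FPKM (processed). The pair that reached an FPKM of 1 was AIF1, from 2.71 FPKM to 0, and CD163, from 1.60 FPKM to 0. PTPRC, the pan-leukocyte marker CD45, was at 0.174 FPKM in live cells. CD14 and TYROBP were at 0.250 and 0.0133 FPKM in live cells, and all of these were listed at 0 in processed cells. The lysosomal protein CD68 had 0.830 and 0.703 FPKM and the growth factor receptor CSF1R 0.498 and 0.923 FPKM, both with overlapping bounds. The part of such cells in the SPP1 difference was not tested. Of 10 osteopontin receptor genes, 8 reached an FPKM of 1, with 2 higher, 2 lower and 4 overlapping, and a median log2 ratio of -0.13. The integrin subunits ITGB1 (130 and 99.2 FPKM) and ITGAV (24.8 and 15.6 FPKM) were lower in processed cells with separate bounds. The subunits ITGA4 (1.95 and 4.04 FPKM) and ITGA9 (4.03 and 5.59 FPKM) were higher with separate bounds, and without the pseudocount ITGA4 differed 2.07-fold. ITGB5 had 33.9 and 30.8 FPKM and CD44 had 3.16 and 3.24 FPKM, both with overlapping bounds. The relatives of SPP1 in the same family of mineral-binding phosphoproteins, IBSP, DMP1, DSPP and MEPE, were listed at 0 in both libraries.

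SPP1 and CFTR had the lowest and the highest log2 ratio of the 8 genes, and the 150 bases before their RefSeq transcription starts are shown for that reason, from build GRCh38.p14 and on the plus strand (SPP1 at chr4:87975564-87975713, CFTR at chr7:117479875-117480024). Capitals mark E-boxes (CANNTG) and CCAAT boxes (CCAAT or ATTGG), searched on both strands together with GC boxes (GGGCGG or CCGCCC) and the TATA box (TATAAA, on the strand of the gene alone).
SPP1: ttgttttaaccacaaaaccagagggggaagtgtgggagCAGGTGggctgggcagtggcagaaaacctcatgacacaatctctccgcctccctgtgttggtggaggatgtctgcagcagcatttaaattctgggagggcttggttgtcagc
CFTR: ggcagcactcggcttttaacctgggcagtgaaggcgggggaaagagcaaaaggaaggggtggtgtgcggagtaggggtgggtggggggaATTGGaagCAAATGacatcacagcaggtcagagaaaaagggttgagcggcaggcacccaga
Each window held 1 E-box, as did 44.2% of 35116 promoters at least once, and CFTR also held 1 CCAAT box, found in 23.5%. Neither held the TATA box, found in 4.54%, or a GC box, found in 36.8%. The windows were poor in CpG, with 1 in SPP1 and 4 in CFTR beside a median of 7. These matches describe the letters alone. The table held 5 of the 8 genes, and CA2, EPCAM and CDH1 were not matched.

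**Figure D2:**
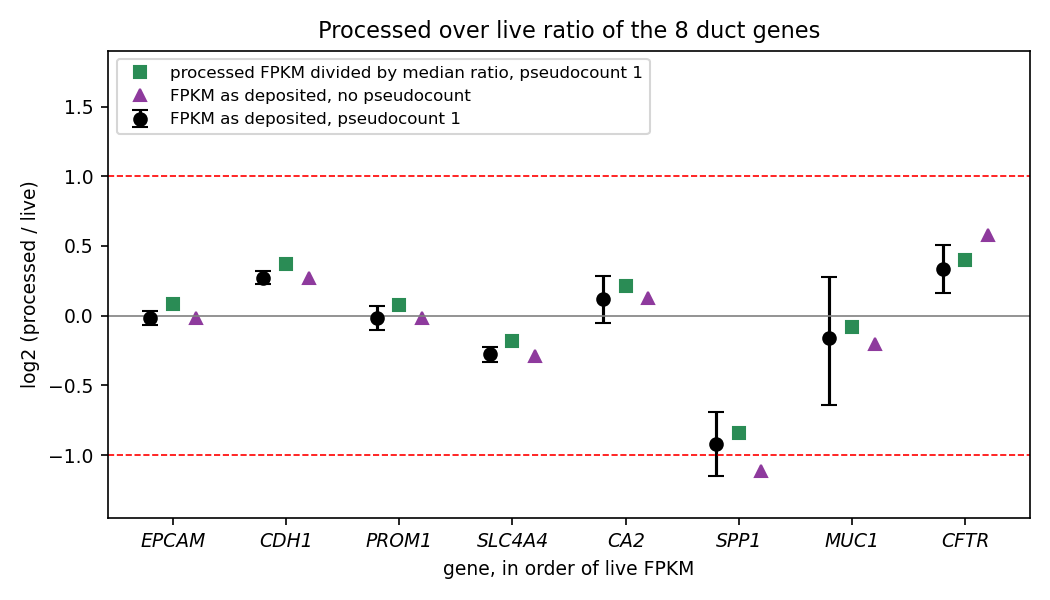
Log2 ratio of processed to live FPKM for the 8 duct genes as deposited with a pseudocount of 1 (black, bars spanning the ratios that the bounds of both libraries allow), after rescaling by the median ratio (green squares) and without a pseudocount (purple triangles), with dashed lines at 2-fold. SPP1 crosses the lower line without a pseudocount, at -1.12, and the other genes stay between the lines at every setting drawn.

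The apical membrane was represented by MUC1 and PROM1. MUC1 (chromosome 1, 155158300 to 155162707, minus strand) encodes a transmembrane mucin of the luminal surface. It had 4.21 FPKM in live cells (3.61 to 4.81) and 3.66 FPKM in processed cells (2.73 to 4.58), so that the libraries were not separated, at a log2 ratio of -0.16 and a rescaled ratio of -0.083. The processed bounds reached 25.3% above the value, the widest of the 8 genes. KRTCAP2, on the same strand, shares 1448 bp with the 3′ side of MUC1 in the authors' annotation and was far more abundant, at 55.7 and 54.7 FPKM, so a part of the fragments of MUC1 depends on how the overlap was divided.

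PROM1 (chromosome 4, 15964699 to 16086001, minus strand) encodes prominin-1, or CD133, a pentaspan protein of apical membrane protrusions. It was nearly equal in the libraries, with 34.9 FPKM in live cells (33.9 to 35.9) and 34.4 FPKM in processed cells (33.3 to 35.6), overlapping bounds, a log2 ratio of -0.018 and a rescaled ratio of 0.080. Its paralog PROM2 had 3.22 and 3.74 FPKM, so that PROM1 was 10.8 times as abundant in live and 9.19 times in processed cells. Of 8 other apical membrane genes, 5 reached an FPKM of 1, with 4 lower with separate bounds and 1 overlapping, and a median log2 ratio of -0.20. Rescaling kept these counts, with a median of -0.095. The lower genes included EZR, the linker of membrane proteins to actin, at 121 and 106 FPKM. TJP1, a scaffold of tight junctions, had 38.1 and 33.4 FPKM, and the sialomucin PODXL had 19.1 and 12.9 FPKM. The mucins MUC4, MUC13 and MUC16 stayed below 0.3 FPKM in both libraries. MUC1 was the most abundant of the genes on these lists whose names begin with MUC.

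Epithelial adhesion was represented by the most abundant genes of the group. EPCAM (chromosome 2, 47572297 to 47614740, plus strand) encodes a surface glycoprotein of epithelial contacts, and CDH1 (chromosome 16, 68771128 to 68869445, plus strand) encodes E-cadherin, which holds epithelial cells together at adherens junctions. EPCAM had 182 FPKM in live cells (179 to 185) and 180 FPKM in processed cells (177 to 183), with overlapping bounds, a log2 ratio of -0.016 and a rescaled ratio of 0.085. CDH1 had 161 FPKM in live cells (158 to 164) and 195 FPKM in processed cells (191 to 198), with separate bounds, a log2 ratio of 0.27 and a rescaled ratio of 0.37. The order of these genes was thus exchanged. CDH1 stood at 0.884 times EPCAM in live cells and 1.08 times in processed cells, and their bounds were separate within each library. The pseudogene FTLP14, which lies inside CDH1, had 0.920 and 4.06 FPKM with the low-data status in both libraries, and its upper bound, at 8.85 FPKM, was small beside the level of CDH1.

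The partners of both proteins were abundant as well. All 9 partner genes reached an FPKM of 1, with 2 higher, 4 lower and 3 overlapping, and a median log2 ratio of -0.052. CTNNB1, or beta-catenin, which binds the tail of E-cadherin, had 165 FPKM (163 to 167) in live and 118 FPKM (117 to 120) in processed cells, a log2 ratio of -0.47, opposite in sign to that of CDH1. CTNNA1, or alpha-catenin, which links the complex to actin, had 152 and 146 FPKM with overlapping bounds, and JUP, or plakoglobin, had 64.0 and 50.3 FPKM. SPINT2, an inhibitor of membrane serine proteases, was the most abundant of these genes, with 248 and 256 FPKM. Of 9 genes of a wider epithelial programme, 5 were lower with separate bounds, 4 overlapped and none was higher, with a median log2 ratio of -0.057. Rescaling turned these counts to 3 higher and 2 lower, with a median of 0.044, and those of the partner genes to 3 and 3, with a median of 0.049. The keratins KRT8 (1679 and 1479 FPKM) and KRT18 (998 and 959 FPKM) led that list, followed by P-cadherin, CDH3, at 79.5 and 78.5 FPKM.

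CDH2, which encodes N-cadherin, had 130 FPKM (129 to 132) in live and 111 FPKM (109 to 112) in processed cells, so that CDH1 exceeded it 1.24-fold in live and 1.76-fold in processed cells. The transcription factors that repress CDH1 were low. ZEB2 had 9.44 and 6.34 FPKM, SNAI2 had 4.38 and 2.99 FPKM and SNAI1 had 2.43 and 1.81 FPKM, all lower in processed cells with separate bounds, whereas ZEB1 had 1.11 and 1.64 FPKM and TWIST1 had 0.574 and 2.93 FPKM, both higher with separate bounds. TWIST1 was the single gene of this list past 2-fold, at a log2 ratio of 1.32. The median of these 6 genes was -0.26, and after rescaling bounds were separate for 2 on the higher and 3 on the lower side, with SNAI1 overlapping.

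**Figure D3:**
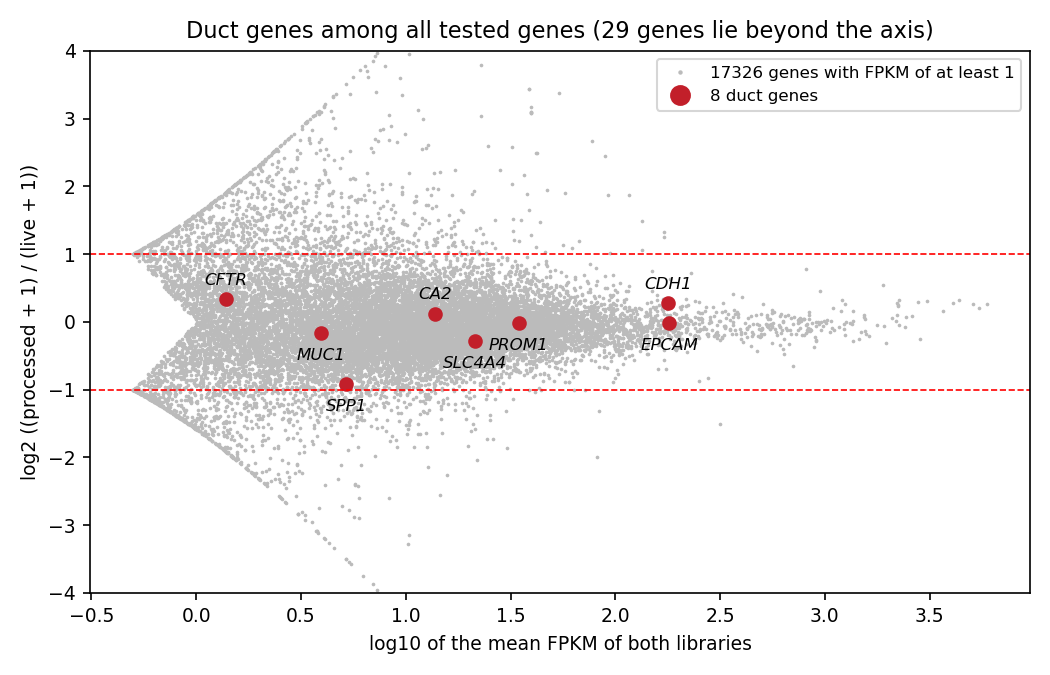
Log2 ratio with a pseudocount of 1 against the log10 of the mean FPKM for the 17326 tested genes (grey) and the 8 duct genes (red), with dashed lines at 2-fold; 29 genes lie beyond the vertical axis. The spread of all genes narrows as FPKM rises, and the duct genes lie within the grey cloud, with SPP1 nearest to a line at -0.92.

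Within each library, neighbours in the order of FPKM were separated by their bounds with a single exception. In live cells the order was EPCAM, CDH1, PROM1, SLC4A4, CA2, SPP1, MUC1 and CFTR, and every step was larger than the bounds, from 1.13-fold between EPCAM and CDH1 to 4.62-fold between CDH1 and PROM1. In processed cells CDH1 preceded EPCAM and MUC1 preceded SPP1, and the latter pair, at 3.66 and 3.28 FPKM, had overlapping bounds. SPP1 stood at 1.69 times MUC1 in live and 0.898 times in processed cells. The highest gene exceeded the lowest 163-fold in live and 117-fold in processed cells.

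Other markers of duct epithelium were set beside the 8 genes to check their name. Of 19 such genes, 13 reached an FPKM of 1, with 3 higher, 7 lower and 3 overlapping, and a median log2 ratio of -0.067. Rescaling turned this to 6 higher and 4 lower, with a median of 0.034. KRT19, the keratin by which ducts are usually stained, had 543 FPKM (live) and 518 FPKM (processed), 487 and 311 times the FPKM of CFTR. The transcription factor SOX9, which marks ducts and pancreatic progenitors, had 82.4 and 85.3 FPKM, and the Notch target HES1 had 93.6 and 87.1 FPKM. ONECUT1, a factor of duct and endocrine development, was also among these genes, with 31.2 FPKM (29.9 to 32.5) in live and 17.4 FPKM (16.2 to 18.6) in processed cells, a log2 ratio of -0.81. Lower on this list, the water channel AQP1 had 0.541 and 1.48 FPKM, the gel-forming mucin MUC6 had 0.304 and 0.245 FPKM, and LCN2 was listed at 0 in both libraries.

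Markers of other kinds of cells were present in the same RNA. Endocrine, acinar, hepatic, mesenchymal, pluripotent and intestinal markers were all detected, so no FPKM of the 8 genes can be assigned to duct cells. Of 10 endocrine markers, 9 reached an FPKM of 1, with 4 higher, 1 lower, 4 overlapping and a median log2 ratio of 0.13, led by CHGA (1794 and 1741 FPKM, with a failed estimate in processed cells), SST (243 and 266 FPKM) and GCG (135 and 131 FPKM), and PPY was listed at 0. Of 8 hepatic markers, all reached it, with 4 higher, 2 lower and a median of 0.17, led by SERPINA1 (1496 and 1579 FPKM), AFP (460 and 550 FPKM) and APOA1 (297 and 360 FPKM). Of 11 acinar markers, 6 reached it, with 2 higher, 3 lower and a median of -0.10, turned by rescaling to 2 higher, 1 lower and a median of -0.010, among them PTF1A (16.3 and 14.5 FPKM) and CPA1 (10.4 and 9.98 FPKM). CTRB1 passed 2-fold, from 0.478 to 2.87 FPKM, and PNLIP was listed at 0. Other acinar enzyme genes were near 0. CTRC had 0.226 and 0.0152 FPKM. CELA2A, CELA3A and AMY2A, at 0.0398, 0.0214 and 0.0199 FPKM in live cells, were listed at 0 in processed cells.

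Pluripotency markers matter here because stem cells also express EPCAM and CDH1. All 8 reached an FPKM of 1, with 1 higher, 6 lower and 1 overlapping, and a median log2 ratio of -0.28. Rescaling turned this to 1 higher, 5 lower and 2 overlapping, with a median of -0.18. The summed level as deposited was 229 FPKM (live) and 184 FPKM (processed). LIN28A led these markers at 119 and 88.7 FPKM, before SOX2 at 52.4 and 47.1 FPKM and DPPA4 at 23.5 and 18.1 FPKM. POU5F1 had 7.92 and 8.53 FPKM with overlapping bounds. ZFP42 (6.98 and 2.57 FPKM) and TDGF1 (5.54 and 1.46 FPKM) passed 2-fold downwards and NANOG (1.27 and 7.34 FPKM) upwards. POU5F1, TDGF1 and NANOG have processed pseudogenes of near-identical sequence, so their values are uncertain. The part of residual stem cells in the EPCAM and CDH1 values was not tested.

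Of 7 intestinal markers, 5 reached an FPKM of 1, with 2 higher, 1 lower and 2 overlapping, and a median of 0.16. VIL1 had 54.6 and 54.1 FPKM and CDX2 had 14.1 and 20.9 FPKM, while FABP1, a fatty acid binding protein of gut and liver, passed 2-fold from 11.3 to 26.1 FPKM. The cadherin CDH17 was lower, with 2.25 and 0.886 FPKM and separate bounds, and MUC2 and OLFM4, at 0.174 and 0.0977 FPKM in live cells, were listed at 0 in processed cells. Of 8 mesenchymal markers, all reached it, with 2 higher, 4 lower and a median of -0.064, which was 0.033 after rescaling, led by VIM (514 and 485 FPKM), COL1A1 (31.9 and 22.7 FPKM) and COL1A2 (21.5 and 26.6 FPKM). PDGFRB passed 2-fold downwards, from 4.26 to 1.17 FPKM, and DCN upwards, from 4.18 to 12.4 FPKM. Endothelial markers were low, with KDR at 1.21 and 0.857 FPKM, TEK at 0.591 and 0.850 FPKM and CDH5 at 0.222 and 0.312 FPKM, and PECAM1 was not matched by name.

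**Figure D4:**
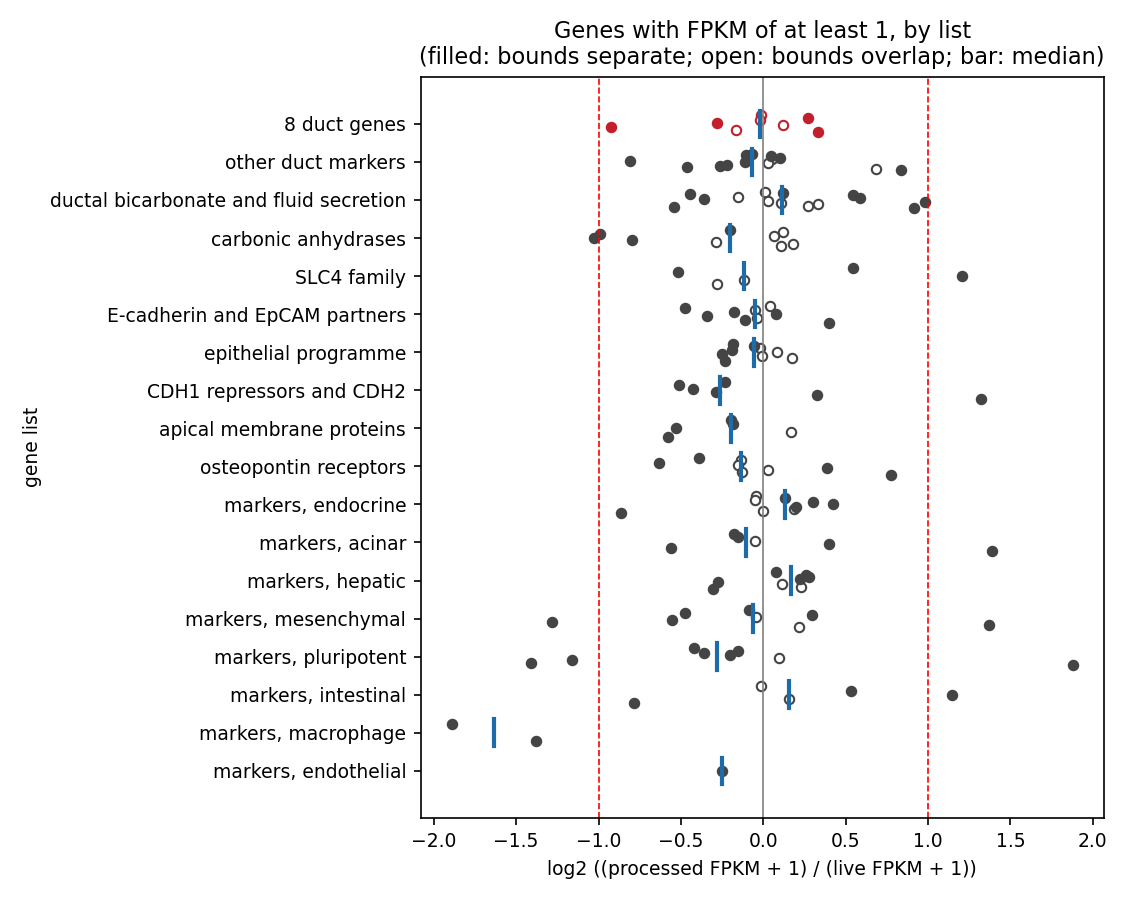
Log2 ratio with a pseudocount of 1 of each gene that reached 1 FPKM, by list, with filled points for separate bounds, open points for overlapping bounds, a bar at the median of each list and dashed lines at 2-fold. The 8 duct genes (red) have a median of -0.017 and lie between the 2-fold lines, and both macrophage markers that reached 1 FPKM lie below the lower line.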

How the data were processed

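One live and 1 processed library of H1-derived Stage 6 cells were compared. Paired reads of 80 nt were aligned by the authors to GRCh37/hg19 with STAR 2.2.0c guided by GENCODE annotations, and the deposited FPKM values and bounds came from Cufflinks 2.0.2 per the labels. They are normalized for length and library by the authors. The level of the bounds is not given in the sources used here.

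Tables were joined by gene identifier, since 5489 genes stood in the same row of both. Ratios used a pseudocount of 1. Genes were tested for 2-fold and for separate bounds where FPKM reached 1 in at least one library. Rescaling divided processed FPKM by the median ratio. Locus starts were converted to count from 1. Gene types, strands and canonical transcripts came from GENCODE 44 on GRCh37, which held 96.5% of the 17326 tested genes. Fragment numbers are approximate: FPKM times canonical transcript length less 170 nt, in kb, divided by the step of 1 fragment (0.0100 in live and 0.0107 in processed cells), read in bins of 5.0e-04 from genes with 1 annotated transcript. The 8 genes and the lists were chosen with earlier results of these data known. Named from each list, apart from some genes not reported here, were the 3 genes highest in live cells, genes past 2-fold and markers at 0 in both libraries. Other named genes were chosen after their values were seen, and genes overlapping a duct gene were named where they bear on it. Python 3.11.15, numpy 2.4.6 and pandas 2.3.3 were used, and the calculations were tested on simulated data.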

Additional observations from a re-analysis of the deposited data

How the results depend on the processing

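With 1 library per condition there is no replicate error, and no library could be left out. No paired analysis was possible because each condition has 1 library. The number of duct genes past 2-fold was 0 with a pseudocount of 1, and 1, SPP1, with a pseudocount of 0.1 and 1 with no pseudocount. Bounds were separate for 4 duct genes as deposited and with equal sums of FPKM, and for 6 after median scaling. The median log2 ratio of the 8 genes was -0.017 as deposited, 0.015 with equal sums and 0.082 after median scaling, so its sign depends on the scaling, as do those of EPCAM (0.016 and 0.085) and PROM1 (0.013 and 0.080). CDH1, CFTR, SLC4A4 and SPP1, the genes with separate bounds as deposited, kept their direction under both pseudocounts and both scalings. With a pseudocount of 1, the share of all genes past 2-fold ranged from 5.01% at an FPKM of at least 10 to 13.2% after median scaling. Without a pseudocount it was 19.3% of the 16991 tested genes above 0 in both libraries. The share with separate bounds ranged from 64.2% with no filter to 74.0% at an FPKM of at least 10.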

Other observations

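Across the 167 genes of the other lists, 14 were above 0 in live cells and listed at 0 in processed cells, and 0 were above 0 in processed cells alone. Over all 55797 genes these numbers were 5375 and 982. The 14 included genes of duct and gut epithelium at low levels in live cells, such as P2RY2, an ATP receptor of the apical membrane, at 0.876 FPKM, the carbonic anhydrase CA9 at 0.385 FPKM, the trefoil peptide TFF2 at 0.316 FPKM and the mucins MUC2 and MUC13 at 0.174 and 0.136 FPKM. They were chosen after their values were seen. A further trefoil peptide, TFF1, was higher in processed cells, at 0.264 and 1.26 FPKM with separate bounds. The water channel AQP5 was also higher, at 0.635 FPKM (0.489 to 0.782) in live and 2.08 FPKM (1.81 to 2.35) in processed cells. None of the 8 duct genes was at 0 in either library.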
